A study of Mus musculus with 7 samples.

Results

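A set of 10 genes of inflammatory signalling were examined for Fos binding in mouse hippocampus after a seizure-inducing stimulus: Il1a, Il1b, Il6, Tnf, Ccl2, Ccl3, Ccl4, Cxcl10, Nfkbia and Icam1. They were chosen by name as known targets of AP-1, and all 10 of 10 were found among the 21900 protein-coding genes of the gene table. Every peak of 6 Fos ChIP-seq peak lists that lay within 50 kb of a gene's span was assigned to that gene. Overlapping peaks were merged into regions, which gave 36 regions near the 10 genes out of 68873 in the whole series. A kainic acid region is one that was called in 2 or more of the 3 lists from kainic acid mice.

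Chromatin came from the hippocampus of wild-type C57BL/6J mice aged 2 months that had received saline (3 libraries) or kainic acid (3 libraries). Kainic acid, an agonist of glutamate receptors, was injected intraperitoneally at 10 mg/kg in a pair of doses 30 min apart, and mice with seizures of level 4 were killed 1 h after the first dose. A further library of input chromatin from saline mice had no peak list here. The number of animals per library is not labelled, nor whether libraries stem from separate animals, so p-values measure only the spread between these libraries, which may be technical.

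Fos is an immediate early protein that pairs with a Jun protein to form AP-1, which binds the sequence TGANTCA. At cytokine and chemokine genes AP-1 acts together with NF-kB, a second inducible factor, which is held in the cytoplasm by inhibitors such as the product of Nfkbia. In brain these genes are known mainly as products of microglia, astrocytes and endothelial cells, whereas Fos after seizures is best known in neurons. The chromatin was from whole tissue, so weak binding in many cells and strong binding in few cells cannot be told apart.

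The lists differed in length before any gene was considered. The kainic acid lists held 15009, 63197 and 29650 peaks in replicates 1, 2 and 3, and the saline lists held 7, 3277 and 2. The narrowest peak was 49 bp in saline replicate 1 and 76 bp in saline replicate 3, against 202 to 270 bp in the other 4 lists. A region missing from a list was not called there, which does not show that it was unbound.

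Promoters were examined first. RefSeq windows (GRCm38.p6, 250 bases before to 50 bases after the gene start) were matched for 8 of the 10 genes, all but Ccl2 and Ccl4. A peak of kainic acid replicate 2 overlapped the windows of Cxcl10 and Nfkbia, no other list had a peak in any of the 8, and 0 of 8 held a kainic acid region. Set against these 2 of 8 and 0 of 8, over all 32817 windows of the table, 10.7% overlapped a peak of kainic acid replicate 2 and 4.67% a kainic acid region. The 250 bases before the start are printed 5′ to 3′ on the strand of the gene for these 2 genes, and for Il6 and Il1a, which hold a TGANTCA match but had no peak there. Runs of 7 capitals mark TGANTCA and runs of 10 capitals mark the NF-kB consensus, each searched on both strands. The windows are chr5:92348890-92349139 (minus strand) for Cxcl10, chr12:55492648-55492897 (minus) for Nfkbia, chr5:30012864-30013113 (plus) for Il6 and chr2:129309973-129310222 (minus) for Il1a.
Cxcl10: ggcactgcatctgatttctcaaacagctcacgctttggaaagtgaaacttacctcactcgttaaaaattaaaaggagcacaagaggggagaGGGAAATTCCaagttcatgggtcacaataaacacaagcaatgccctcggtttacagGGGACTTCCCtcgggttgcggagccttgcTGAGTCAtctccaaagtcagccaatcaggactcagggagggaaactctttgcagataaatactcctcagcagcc
Nfkbia: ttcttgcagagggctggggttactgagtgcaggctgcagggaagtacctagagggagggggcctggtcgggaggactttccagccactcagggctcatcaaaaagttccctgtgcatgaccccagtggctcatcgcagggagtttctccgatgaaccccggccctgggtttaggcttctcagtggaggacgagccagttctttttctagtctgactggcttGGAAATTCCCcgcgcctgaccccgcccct
Il6: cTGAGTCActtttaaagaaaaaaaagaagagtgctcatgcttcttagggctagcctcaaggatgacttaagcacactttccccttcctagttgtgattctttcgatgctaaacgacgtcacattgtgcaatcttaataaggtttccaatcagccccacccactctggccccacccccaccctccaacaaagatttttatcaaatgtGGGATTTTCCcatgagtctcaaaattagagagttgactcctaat
Il1a: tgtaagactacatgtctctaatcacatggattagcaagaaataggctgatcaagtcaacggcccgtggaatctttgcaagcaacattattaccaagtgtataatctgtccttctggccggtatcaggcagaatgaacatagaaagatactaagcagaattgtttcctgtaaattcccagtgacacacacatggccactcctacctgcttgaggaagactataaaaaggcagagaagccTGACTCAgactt

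TGANTCA matched in 3 of the 8 windows (Il1a, Il6 and Cxcl10), 37.5%, and in 7.81% of all windows. The NF-kB consensus also matched in 3 of 8 (Il6, Cxcl10 and Nfkbia), against 4.50% of all windows. The genes were chosen as known targets of AP-1, so these shares are not an independent result, and their difference from all windows was not tested. In the Cxcl10 promoter the TGANTCA match began 74 bases before the gene start, and the NF-kB matches began 103 and 159 bases before it. The summit of the replicate 2 peak lay 3 bases from the centre of the NF-kB match GGGACTTCCC and 30 bases from that of the TGANTCA match. The Nfkbia window held no TGANTCA, and the peak summit there lay 127 bases from its NF-kB match. Tnf, Ccl3, Il1b and Icam1 held neither match in the window. Each NF-kB match in these windows began with GGG or ended with CCC. The Icam1 window held tggaaattcc, which differs from the Cxcl10 match GGGAAATTCC in its first letter only and was not counted. A match is a string of letters and not a measured site, and a window without one says only that these letters are absent from it. For the whole series, TGANTCA was present in 23.2% of the 1532 windows that overlapped a kainic acid region and in 7.06% of the others.

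More peaks near the 10 genes were called after kainic acid than after saline. Kainic acid replicates 1, 2 and 3 had 3, 34 and 12 peaks within 50 kb of any of the genes, and saline replicates 1, 2 and 3 had 0, 1 and 0. The groups did not overlap. On the scale log10(n + 1) the means were 1.09 ± 0.472 (SD, n = 3) for kainic acid and 0.10 ± 0.174 (SD, n = 3) for saline, a difference of 0.99 (two-sided exact permutation test, p = 0.1, the smallest value that 3 lists against 3 allow). The difference moved with list length. When the 4 long lists were reduced to their 3277 peaks of highest −log10 q, kainic acid replicates 1, 2 and 3 had 2, 1 and 1 peaks near the genes and saline replicate 2 still had 1, so that the groups touched (difference 0.26, exact permutation p = 0.3). The peaks near the genes were 0.0200%, 0.0538% and 0.0405% of the 3 kainic acid lists and 0.0305% of the list of saline replicate 2. Saline replicates 1 and 3, with 7 and 2 peaks, hold too few peaks to show whether these genes were bound: a count of 0 there allows a share of up to 42.9% and 100%, for counting error only.

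**Figure D1:**
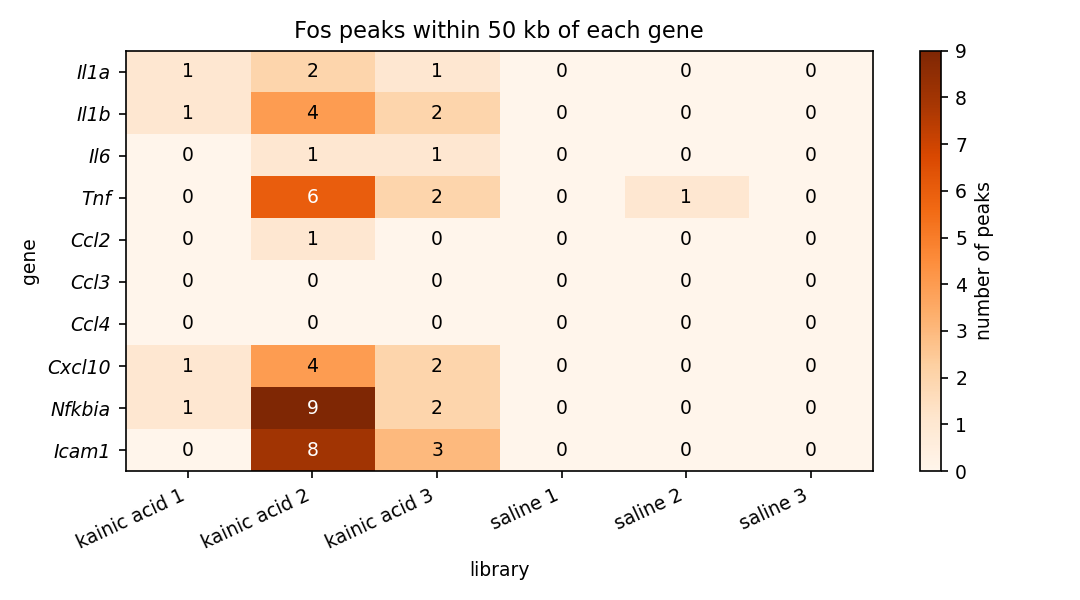
Number of Fos peaks (colour and printed digit) within 50 kb of each gene (rows) in each of the 6 peak lists (columns). Kainic acid replicate 2 has at least as many peaks as any other list in every row, up to 9 at Nfkbia, while Ccl3 and Ccl4 are at 0 in all 6 lists and the only saline peak lies near Tnf.

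Of the 10 genes, 6 had a kainic acid region within 50 kb: Il1a, Il1b, Tnf, Cxcl10, Nfkbia and Icam1. Il6, Ccl2, Ccl3 and Ccl4 had none. This is 6 of 10 genes, beside 62.7% of all 21900 protein-coding genes and 51.9% of the 10545 whose span is no longer than the longest of the 10 (16060 bp). A region in all 3 kainic acid lists lay near 4 of 10 (Il1a, Il1b, Cxcl10 and Nfkbia), beside 42.5% of all genes and 32.5% of the shorter ones. For Il1a and Il1b it was the same region. A peak in any kainic acid list lay near 8 of 10, beside 78% of all genes, and a kainic acid region within 10 kb near 2 of 10 (Il1a and Il1b), beside 40%. The shares for all genes at 50 kb are close to those of the 10. The median number of kainic acid regions was 1.5 for the 10 genes and 1 for all genes. For regions in any kainic acid list the order was the other way, with a median of 3 for the 10 genes and 4 for all genes. The windows together covered 0.918 Mb with 11.98 kainic acid regions per Mb, against 13.5 per Mb of the windows around all protein-coding genes. For single lists, 4, 8 and 7 of the 10 genes had a peak in kainic acid replicates 1, 2 and 3, beside 46.3%, 77.4% and 63.3% of all genes, and 1 of 10 had one in saline replicate 2, beside 30.2%. Saline replicates 1 and 3 had a peak near 0 of 10, beside 0.032% and 0% of all genes. Il1a and Il1b shared their only peak of kainic acid replicate 1. Each kainic acid list exceeded each saline list at Il1a, Il1b, Cxcl10 and Nfkbia, 4 of 10 genes, beside 33.5% of all genes. Without kainic acid replicate 1 it was 7 of 10, beside 53.9%, and without saline replicate 2 it was 4 of 10, beside 44.8%.

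Support by replicates was thin at most of the regions. Of the 35 regions with a kainic acid peak, 3 were in all 3 lists (8.57%, against 17.9% of the 66683 such regions of the series), 8 in exactly 2 (22.9%, against 22.4%) and 24 in 1 (68.6%, against 59.7%). The 8 regions in 2 lists all joined replicates 2 and 3, as did 87.9% of such regions in the series. Of the 24 in a single list, 23 came from replicate 2, the longest list, and 1 from replicate 3. A region still had to be in 2 lists when a replicate was left out. Leaving out replicate 2 or replicate 3 therefore took the 11 kainic acid regions, by construction, to the 3 in all 3 lists. Tnf and Icam1 then had none. The genes with such a region were then 4 of 10, beside 42.6% of all genes without replicate 2 and 45.1% without replicate 3. No region near the genes had a peak in both groups, but only 1 of the 36 regions had a saline peak at all. The saline lists held 7, 3277 and 2 peaks, beside 68873 regions in the series, so few regions anywhere could hold both.

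**Figure D2:**
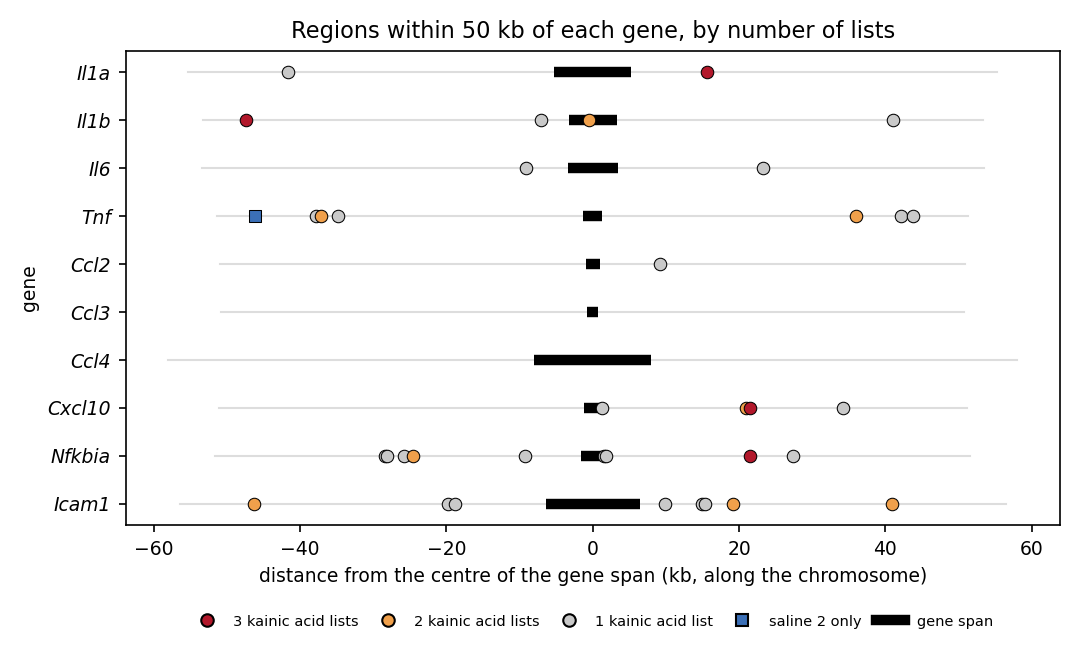
Position of each of the 36 regions (points, at the median summit of its peaks) as the distance in kb from the centre of the gene span, which is drawn as a black bar in its window of 50 kb on either side. Red points are regions in 3 kainic acid lists, orange in 2 and grey in 1, and the blue square is the saline replicate 2 peak in the Tnf window. Points inside or next to a gene's own span are few, and the red point right of Il1a is the same region as the red point left of Il1b.

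Il1a and Il1b encode interleukin-1α and interleukin-1β, cytokines that start the inflammatory response through a common receptor. Both lie on chromosome 2 (Il1a at 129299609 to 129310186 and Il1b at 129364569 to 129371164) and share the region chr2:129319896-129320727, which was in all 3 kainic acid lists. Its summit lay 44.1 kb from the span of Il1b. From Il1a the summit lay 10.5 kb before the start, outside any gene, and the near edge of the region 9.71 kb from the span. Reach was measured to the edge of a peak or region, so it counts as within 10 kb, whereas distances given for regions within 50 kb are to the summit. Its deposited fold, the ratio of the summit to its local background within that library, was 4.47, 5.18 and 3.66 in replicates 1, 2 and 3. Folds are not scaled between libraries, so ranks within each list are given, scaled from 0 (the top fold of its list) to 100 (the bottom). Such a rank depends on the length of its list, and a shared region can rank nearer to 0 in a longer list. The region ranked at 47.2, 33.1 and 63.2. It was a peak of middle fold in each list. Its summits in the 3 lists lay within 168 bp of each other. The pileups solved from fold and p were 23, 30 and 27 reads over backgrounds of 4.37, 4.98 and 6.64 reads.

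The other kainic acid region of the pair lay inside Il1b, at chr2:129367101-129367590, 3.79 kb after its start. It was called in replicate 2 (fold 7.47, rank 13.2) and replicate 3 (fold 3.58, rank 67.9) and not in replicate 1. Replicate 2 alone had peaks at chr2:129360645-129360971 and chr2:129408865-129409089 near Il1b, and near Il1a at chr2:129263027-129263672, where Ckap2l was the nearest gene. The gene table gives no exons, so it cannot be said whether the peak inside Il1b is exonic or intronic. This region is also the nearest beyond the limit for Il1a, at 56.9 kb from its span.

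Cxcl10, the chemokine that draws T cells through the receptor Cxcr3, had the strongest region of the set. Its span is chr5:92346638-92348889, and the region at chr5:92368945-92369610 lay 20.4 kb before its start, inside the span of Art3, a gene of the ADP-ribosyltransferase family whose span also covers the Cxcl10 promoter. The fold was 6.998, 12.4 and 8.08 in replicates 1, 2 and 3, which ranked it at 8.71, 2.56 and 4.54 (mean 5.27 ± 3.14, SD over 3 lists). Counted from the top, it stood at positions 1308, 1621 and 1347 in lists of 15009, 63197 and 29650 peaks. It was thus near the top of every kainic acid list, with pileups of 44, 69 and 63 reads over backgrounds of 5.43, 4.64 and 6.92. Its summits fell within 42 bp of each other. With 3277 peaks per list it was the only kainic acid region left near any of the 10 genes. A smaller neighbour at chr5:92368517-92368842 was in replicates 2 and 3, with ranks of 42.0 and 64.7.

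The peak at the Cxcl10 promoter, printed above, was at chr5:92348786-92349186 in replicate 2 only. Its fold was 6.56 and its rank 18.4, the highest rank among the 23 regions found in that list alone, and its pileup was 27 reads over a background of 3.27. The remaining peak in the window, at chr5:92381842-92382179, was also of replicate 2 only and ranked at 90.5. All 4 regions near Cxcl10 lay inside Art3, and 3 other protein-coding genes, Art3 among them, reached into the window. Distance alone therefore does not tie these regions to any single gene.

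Nfkbia encodes IκBα, the inhibitor that NF-kB itself induces and that ends its own activation. Its span is chr12:55489409-55492647, no other protein-coding gene reached into its window, and all 9 of its regions had it as the nearest gene. The region in all 3 lists, chr12:55512288-55512907, lay 19.9 kb before the gene start. Its fold was 6.96, 4.32 and 5.36, with ranks of 8.97, 52.7 and 20.8 in replicates 1, 2 and 3. Replicate 2, the longest list, placed it lowest and with the fewest reads (15, against 28 and 26 in replicates 1 and 3). The summits lay within 36 bp.

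A second kainic acid region near Nfkbia, chr12:55466002-55466876, lay 26.2 kb after the gene start. It ranked at 25.9 in replicate 2 and 96.6 in replicate 3, so that it was among the weakest peaks of the latter. The other 7 regions were of replicate 2 only, and 2 of them flanked the gene start. The promoter peak at chr12:55492679-55492916 had a fold of 3.62 and a rank of 76.6, and its neighbour inside the gene, chr12:55492367-55492580, had 3.19 and 90.1.

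Icam1 encodes an adhesion protein by which endothelial cells hold leukocytes, and it heads a cluster of related genes on chromosome 9 (Icam1 at 21015940 to 21028814). It had 8 regions, 3 of them in replicates 2 and 3 and 5 in replicate 2 only. None had Icam1 as the nearest gene and none lay inside it. The region with the most even ranks, chr9:21041425-21041909, lay 25.6 kb after the start and nearest to Icam5, an adhesion protein of telencephalic neurons, with folds of 6.21 and 5.05 and ranks of 21.4 and 25.0 in replicates 2 and 3. The region at chr9:21062876-21063524, inside Zglp1, ranked at 5.38 in replicate 2 and at 67.9 in replicate 3. The third, chr9:20975827-20976375, was inside S1pr2, which encodes a receptor for sphingosine-1-phosphate, and ranked at 28.4 and 62.1. Replicate 1 had no peak in this window.

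Tnf encodes tumour necrosis factor, the cytokine that activates NF-kB through its receptors. Its span, chr17:35199367-35202007, lies in the gene-dense major histocompatibility region, where 8 other protein-coding genes reached into the window. All 7 regions lay at least 33.5 kb from Tnf, and none had it as the nearest gene. The region chr17:35236025-35237103 overlapped the promoter windows of Atp6v1g2 and Nfkbil1 and had folds of 7.05 and 2.62 in replicates 2 and 3, with ranks of 15.2 and 96.9. The region chr17:35163377-35163789, inside Prrc2a, ranked at 83.2 and 47.7. Prrc2a also held the only saline peak of the set, chr17:35154385-35154586 in saline replicate 2, with a fold of 3.69, a rank of 73.3 in its list and a pileup of 11 reads.

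**Figure D3:**
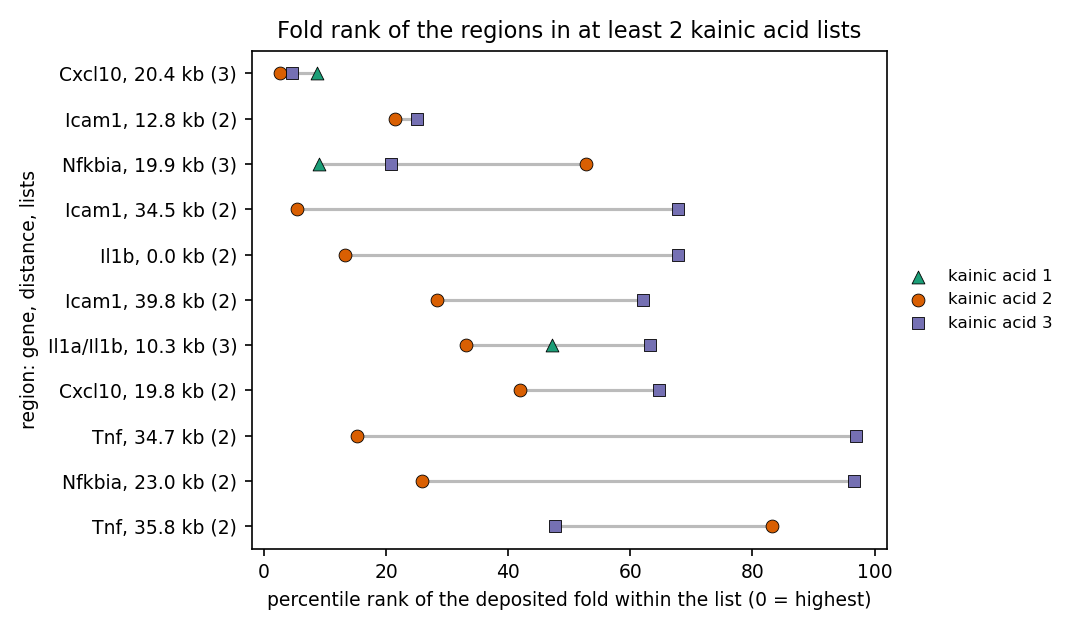
Percentile rank of the deposited fold within each kainic acid list (x axis, 0 is the highest fold) for the 11 regions in at least 2 lists, each named by its gene, its distance from the gene span in kb and, in brackets, its number of lists. The Cxcl10 region at 20.4 kb is near the top in all 3 lists, whereas the ranks of most other regions differ widely between replicates 2 and 3, as at Tnf (15.2 against 96.9). Replicate 2 is the longer list, and these differences were not compared with those of regions elsewhere in the series.

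Il6, a cytokine of the acute phase, had 2 regions, each in a single list. A peak of replicate 3 at chr5:30007248-30007647 lay 5.71 kb before its start (fold 4.07, rank 47.7, pileup of 26 reads), and replicates 1 and 2 had none there. A peak of replicate 2 at chr5:30039666-30039894 lay inside Tyms and ranked at 94.3. The nearest kainic acid region to Il6 was 240 kb away, from edge to edge. Its promoter, which holds both sequence elements printed above, had no peak in any list.

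The CC chemokines Ccl2, Ccl3 and Ccl4, which attract monocytes and other leukocytes, had the fewest peaks. Near Ccl2 (chr11:82035577-82037452) a single peak of replicate 2 lay inside Ccl7, at chr11:82045619-82045884, with a fold of 3.06, a rank of 92.7 and a pileup of 11 reads. Ccl3 (chr11:83647843-83649378) and Ccl4 (chr11:83648624-83664683) overlap in the gene table and had no peak in any list, so their values are not independent. Their nearest kainic acid region was chr11:83563789-83564289, next to Ccl9, at 83.6 kb from Ccl3 and 84.3 kb from Ccl4. The nearest one to Ccl2 was at 156 kb.

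In kainic acid replicates 2 and 3 the peaks near the 10 genes were spread over most of the rank scale. By construction the median rank of a whole list lies at the middle of that scale. A median close to the middle therefore does not set these genes apart, and departures from it were not tested. The median rank was 8.97, 53.9 and 62.6 for the 3, 34 and 12 peaks in replicates 1, 2 and 3, over ranges of 8.71 to 47.2, 2.56 to 96.2 and 4.54 to 96.9. The regions in replicate 2 alone had a median rank of 68.6 there, and those in at least 2 lists 25.9, beside 65.6 and 25.3 for all such regions of the series. The nearest protein-coding gene was 1 of the 10 for 14 of the 36 regions and another gene for 22.

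Other genes of the same pathway were counted the same way, from 42 genes in 4 lists. A kainic acid region lay near 31 of 42 (73.8%), and a region in all 3 lists near 20 of 42 (47.6%), beside the 62.7% and 42.5% of all genes given above. Of the NF-kB subunits and inhibitors it was 9 of 10, the exception being Ikbkb, which encodes a kinase that marks IκB for breakdown. Of further inflammatory targets it was 7 of 8, all but Sele, an endothelial selectin. Of further ligands it was 7 of 10, with none at Ccl7, Ccl12 and Il1rn, and of receptors and adaptors 8 of 14, with none at Il6st, Ccr2, Cxcr3, Tlr4 and Itgal among others. Saline replicate 2 had a peak near 13 of the 42 (31.0%), beside 30.2% of all genes, and near 6 of the 10 NF-kB subunits and inhibitors, 3 of the 8 further targets, 2 of the 10 ligands and 2 of the 14 receptors and adaptors. The lists are short, and their differences were not tested. Lta lies beside Tnf and Ccl7 beside Ccl2, so their windows overlap those described above.

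The best mean ranks over the 3 kainic acid lists among these 42 genes belonged to regions near Il6ra, Vcam1, Nfkb1, Tnfrsf1b and Csf1. Il6ra, the interleukin-6 receptor, had a region at chr3:89860834-89861987 with folds of 8.75, 14.0 and 9.03 in replicates 1, 2 and 3 and a mean rank of 2.60 ± 0.839 (SD), although She was its nearest gene. Vcam1, an adhesion protein of endothelial cells, had a region 29.6 kb from its span at chr3:116080094-116080805 with a mean rank of 11.03 ± 16.4. Nfkb1, the NF-kB subunit p50, had 8 kainic acid regions, 5 of them in all 3 lists, and the best was at chr3:135711306-135712675 (11.4 ± 5.50). The regions at Tnfrsf1b, a receptor of tumour necrosis factor, and at Csf1, a growth factor of microglia, lay at or inside the gene and had mean ranks of 17.4 ± 7.87 and 17.6 ± 19.1. Replicate 1 decided much of this order. Without it 2 of the 5 genes stayed among the best, Vcam1 (1.54) and Il6ra (2.24), joined by Socs3 (2.56), Tgfb1 (6.19) and Nfkbie (6.73). Csf1 then had 6.78, Nfkb1 11.13 and Tnfrsf1b 12.96. Without replicate 2 or replicate 3, 4 of the 5 stayed, and Csf1 gave way to Tgfb1 or Nfkbib, respectively. Il6ra had a mean rank of 2.24 to 3.06 whichever replicate was left out.

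Further lists give a scale for these counts. All 10 of 10 immediate early genes (Fos, Fosb, Junb, Jun, Egr1, Arc, Npas4, Nr4a1, Bdnf and Homer1) had a region in all 3 lists, with a median of 7.5 kainic acid regions within 50 kb and a range of 4 to 14. The 10 inflammatory genes had 0 to 3. Saline replicate 2 had a peak near 8 of the 10 immediate early genes and near 1 of the 10 inflammatory genes. Of the marker genes of cell types, all 10 of 10 neuronal markers had a kainic acid region (median 7), as did 8 of 10 microglial (all but Csf1r and Siglech), 6 of 8 astrocyte (all but Gfap and Gja1), 4 of 6 endothelial (all but Tek and Slco1a4) and 3 of 6 oligodendrocyte markers (with none at Mag and Olig2 among others). Medians were 1, 1.5, 1.5 and 1.5 for these glial and vascular lists. A peak of saline replicate 2 lay near 5 of the neuronal, 4 of the microglial, 3 of the astrocyte, 2 of the endothelial and 3 of the oligodendrocyte markers. A longer gene has a wider window by construction, and length was not matched between these lists. Which cells the peaks near the inflammatory genes came from was not tested, since no RNA and no sorted nuclei were measured.

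**Figure D4:**
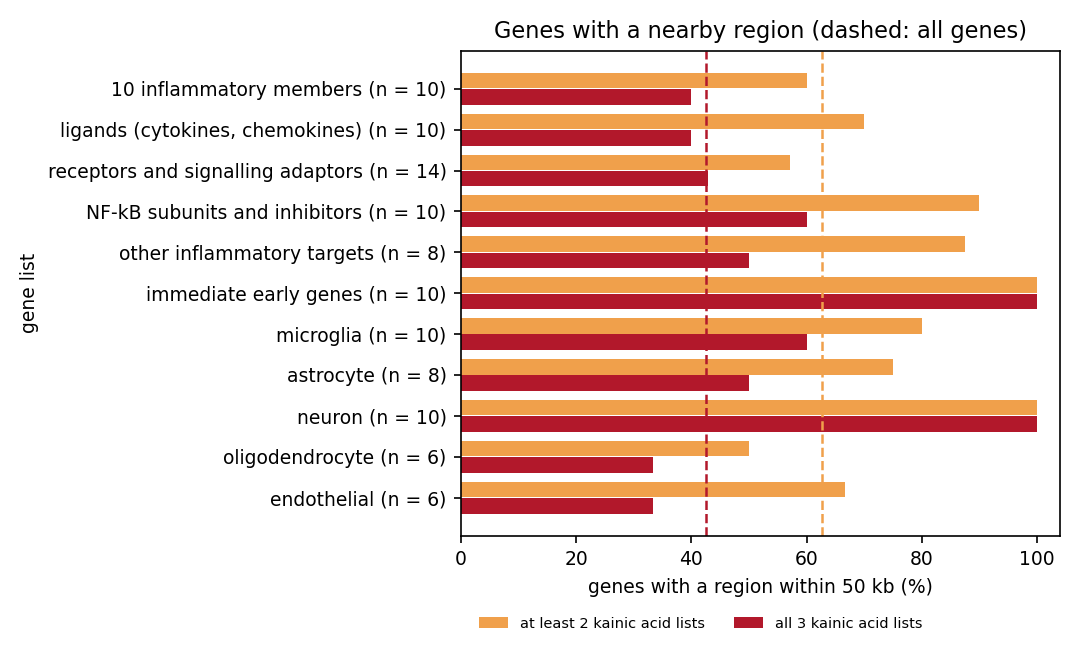
Share of genes (x axis, in %) with a region within 50 kb in at least 2 kainic acid lists (orange) and in all 3 (red), for the 10 inflammatory genes, 4 lists of the same pathway, immediate early genes and markers of 5 cell types. Dashed lines give the shares of all protein-coding genes, 62.7% and 42.5%. The 10 inflammatory genes lie next to both lines, and immediate early genes and neuronal markers reach 100%.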

How the data were processed

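The deposited files were 6 narrowPeak lists, 1 per library and none pooled. Per the submitters' processing notes, reads were handled with Trim Galore 0.6.4, Bowtie2 2.3.4.3, MACS2 and deepTools 3.5.0 on build mm10, and a mapping quality of 30 stands in the names of the peaks. The control library and the cutoff are not given in the sources used here. The score column as deposited holds −log10 q multiplied by 10 without its decimals. The authors' fold, a ratio of summit to local background, and their deposited −log10 p- and q-values each belong to a single library, so they were used only to rank or filter peaks within a list. Gene spans came from RefSeq GRCm38.p6, the assembly of mm10.

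Peaks within 50 kb of a gene's span were counted, and peaks of all lists were merged at 1 bp of overlap (Python 3.11.15, pandas 2.3.3). The nearest gene of a region was taken from the median summit of its peaks. Pileup and background were solved from fold = (k + 1)/(λ + 1) and the Poisson p, within 0.001 in −log10 p for small values, which worked for all 50 of 50 peaks. They rest on this assumed model of the peak caller. Merging, counting and solving were tested on simulated data and returned 3000 of 3000 regions, 200 of 200 genes and 490 of 490 pileups. Numbers of peaks were compared by a two-sided exact permutation test over 20 assignments. All 10 genes are named. Of the pathway lists, the 5 best mean ranks and the genes without a region are named, except items that are not reported here. The genes and lists were chosen with earlier results of these data known. The search for the NF-kB consensus, the background of short genes, the pathway ranks without each replicate and the alternatives for groups without overlap were added after seeing the data. No read totals come with the lists, so depth is known only through these pileups.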

Additional observations from a re-analysis of the deposited data

How the results depend on the processing

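Of 266 alternative values, 189 stayed within the limits set, 77 moved and 0 reversed. These totals do not measure stability. Kainic acid regions are called from kainic acid lists, so leaving out a saline replicate could change their counts only through merging. A count cannot reverse, and a count of 0 must stay at 0 with fewer peaks. Of the counts of regions near single genes, 55 of 160 moved by over 1.5 times, and of the ranks, 2 of 43 moved beyond their SD. That SD is the spread between kainic acid lists, and it was wide for some genes (38.6 for Il1b and 22.6 for Nfkbia). For Tnf the SD of 57.8 exceeded the mean rank of 56.0, so no setting could move it beyond this limit on the rank scale. The small number of ranks that moved therefore does not show that the ranks were stable. The difference in log10 number of peaks was 0.99 and kept its sign under the alternatives run, at 0.52 (exact permutation p = 0.4) with a reach of 10 kb and 0.26 (p = 0.3) with equal list lengths. Leaving out a replicate gave 0.76 to 1.23. Its p cannot pass 0.05 at this size and says nothing about stability. With the replicate block, pairing same-numbered libraries, it was 0.99 (exact sign-flip permutation p = 0.25, the smallest that 3 pairs allow). The labels do not say that the numbers pair libraries, and with 1 saline peak near the genes the data could not show it.

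The 6 genes with a kainic acid region became 2 within 10 kb (40% of all genes), 3 at a −log10 q threshold of 10 (36.1%), 1 with equal list lengths (17.9%) and 3 when the region had to be nearest to the gene (35.3%). Leaving out a replicate gave 4 to 6 (42.6% to 62.7% of all genes). The 11 regions became 2 within 10 kb, 20 within 100 kb, 5 and 3 at −log10 q thresholds of 5 and 10, 1 with equal list lengths, 3 in all 3 lists, 35 in at least 1 list and 4 when nearest to the gene. Leaving out a replicate gave 3 to 11. The 4 genes with no overlap between groups became 0 within 10 kb and 2 at a −log10 q threshold of 10 (20.7% and 17.5% of all genes). Leaving out a replicate gave 4 to 7 (33.5% to 53.9%, with 44.8% beside the 4 without saline replicate 2). The 3 promoters with TGANTCA became 1 within 50 bases of the start, and 0 held TGACGTCA, which 1.79% of all windows hold. A shorter reach and fewer peaks leave fewer regions by construction.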
